A study of Mus musculus with 3 samples.

Results

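Transcripts of 10 genes of the interstitial matrix were followed through single cells of E14.5 wild-type kidney of the mouse. The genes are Col1a1, Col1a2, Col3a1, Col5a1, Col5a2, Col6a1, Dcn, Lum, Postn and Ogn. They were taken by name from a list of fibrillar collagens and small matrix proteoglycans, with no threshold on a measured value. The list and the related gene lists were chosen with earlier results of these data known. Counts of their genes that pass a test are therefore no independent support. All 10 are among the 17864 gene symbols shared by the 3 count tables, and all 10 passed the filter on low counts. The labels name a mixed strain background, mostly CD-1, with 129, and no transgene or treatment. Cells were captured on 3 platforms, the droplet methods Drop-seq and 10x Chromium and the Fluidigm C1 chip, with 1 library each and no replicate. The labels do not say how many embryos a library pools, so spread between animals was not measured. The study set the 3 platforms side by side and asked which cells transcribe Gdnf. The comparisons here are of stroma with cap mesenchyme (the nephron progenitors), of nephrogenic-zone stroma with other stroma, and of fibroblast-like stroma with other stroma.

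Collagens I and III are assembled into the thick fibrils of connective tissue. Collagen I is built from chains of Col1a1 and Col1a2, and collagen III from chains of Col3a1 alone. Collagen V, with chains of Col5a1 and Col5a2, is a minor fibril component that helps to start fibrils, while Col6a1 codes for a chain of collagen VI, which forms beaded microfibrils rather than banded fibrils. Decorin (Dcn), lumican (Lum) and osteoglycin (Ogn) are small leucine-rich proteoglycans, and decorin and lumican bind collagen fibrils and limit their width. Periostin (Postn) is a secreted matricellular protein that binds collagen and integrins. In the embryonic kidney the stroma lies between and around the forming nephrons. Its outer layer, the nephrogenic zone, surrounds the cap mesenchyme and the tips of the ureteric epithelium.

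On mouse build GRCm38 (GENCODE M21), Col1a1 lies on chromosome 11 from 94936224 to 94953042 and Col1a2 on chromosome 6 from 4504814 to 4541544. Col3a1 (chromosome 1 from 45311538 to 45349706, plus strand) and Col5a2 (to 45503282, minus strand) are neighbours 24615 bases apart. Dcn (chromosome 10 from 97479609 to 97518143) and Lum (to 97572703) are also neighbours, both on the plus strand and 46985 bases apart. Col5a1 lies on chromosome 2 from 27886425 to 28039514, Col6a1 on chromosome 10 from 76708792 to 76726168, Postn on chromosome 3 from 54361109 to 54391037 and Ogn on chromosome 13 from 49608046 to 49624501. Exons of Col3a1 share 141 bases with Gm47302, and those of Col5a1 share 99 and 113 bases with 2810430I11Rik and Gm13372 on the opposite strand. Strand use in counting is unstated in the sources used here, so reads in those bases cannot be told apart. None of the other members' exonic bases overlap another annotated gene.

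Because all 10 genes were higher in stroma than in cap mesenchyme, the bases before their start sites are shown where a table holds them. The RefSeq promoter table (GRCm38.p6) matched 6 members (not Col1a1, Col5a2, Dcn and Lum), and in 4 of these (not Col1a2 and Col6a1) the 100 bases before the start hold no annotated exon. The windows were searched on both strands for TATAAA (reverse complement TTTATA), the core promoter box, and for CCAAT (reverse complement ATTGG). Capitals mark the match found. The plus-strand windows are chr1:45311438-45311537, chr2:27886325-27886424, chr13:49607915-49608014 and chr3:54361007-54361106, in the order printed. Postn has another window in the table, from 54359167, that holds neither motif.
Col3a1: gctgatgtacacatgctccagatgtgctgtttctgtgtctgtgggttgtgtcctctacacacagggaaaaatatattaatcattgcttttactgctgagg
Col5a1: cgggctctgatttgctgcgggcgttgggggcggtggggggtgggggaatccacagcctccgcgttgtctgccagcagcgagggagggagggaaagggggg
Ogn: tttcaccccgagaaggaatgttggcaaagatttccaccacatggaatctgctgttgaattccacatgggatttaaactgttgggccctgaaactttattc
Postn: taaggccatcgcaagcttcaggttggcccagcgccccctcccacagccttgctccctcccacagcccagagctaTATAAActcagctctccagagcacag
TATAAA stands at position -26 in the Postn window, and neither motif is in the other 3 windows shown. A match or its lack describes these letters only. Across all 32851 promoter windows of 100 bases in the table, TATAAA was in 5.56% and CCAAT in 18.9%.

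The filters kept 1964 Drop-seq cells, 2130 10x cells and 884 C1 cells, with 17751487 UMIs, 17465306 UMIs and 171350454 reads in all. A UMI tags 1 captured molecule, whereas C1 values are reads with no molecular identifier stated. No cell name was shared between libraries. Cells were clustered in each library alone, with the 10 genes and the related gene lists kept out of the clustering, and clusters were named from fixed markers. Stroma held 303 Drop-seq, 774 10x and 231 C1 cells, and cap mesenchyme 588, 200 and 67 cells. Within stroma, nephrogenic-zone stroma held 109, 246 and 75 cells, mural stroma 127, 122 and 117, and interstitial stroma 49, 259 and 39. A fibroblast-like subtype was named in Drop-seq (18 cells) and 10x (62 cells) and not in C1, and 85 10x stromal cells took no subtype. Those 85 cells scored highest on the nephrogenic-zone markers, with a mean z score of 0.598. Their top 10 genes held 0 of these markers and the fibroblast-like marker Igfbp6. The 10x sub-clusters named nephrogenic-zone had lower scores, at 0.0238 (97 cells), 0.437 (77 cells) and 0.201 (72 cells). By the naming rule the 85 cells were still counted in other stroma. A further 109, 113 and 264 cells stayed unnamed and entered no comparison. The markers that named the clusters were also summed per class, which describes the classes and is no separate check of their names. The 11 cap mesenchyme markers summed to 358, 262 and 403 CPM (counts scaled to a common class total) in nephrogenic-zone stroma of Drop-seq, 10x and C1, against 1628, 2229 and 2979 in cap mesenchyme. The 12 nephrogenic-zone markers summed to 2544, 2188 and 2397 CPM, against 304, 355 and 372.

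All 10 genes were higher in stroma than in cap mesenchyme, in each of the 3 libraries. Together they took 0.292% (Drop-seq), 0.369% (10x) and 0.509% (C1) of all stromal counts, against 0.0122%, 0.00944% and 0.00835% of the counts in cap mesenchyme. Fitted over the libraries with edgeR, log2 fold changes ran from 4.52 for Col5a1 to 6.87 for Ogn, and 10 of 10 genes passed an adjusted p of 0.05. Of the 7235 genes tested, 5.27% were higher in stroma and 11.6% lower. The members' median log2 fold change was 5.39, beside -0.13 over all genes tested. The test sets the class difference against the spread left over 18 class sums with 10 residual degrees of freedom, from libraries that differ in platform. In a fit chosen after the data were seen, in which no called doublet was removed (17 cells in 10x and 10 in C1) and the cells were clustered and named anew, all 10 values stayed positive but 4 of 10 genes passed (Col6a1, Dcn, Lum and Postn), with adjusted p from 0.0245 to 0.114 over the 10 and a median log2 fold change of 3.70. That fit had 15 class sums of 5 classes and called 177 of 7315 genes higher. How much of the change came from the doublets and how much from the redrawn clusters was not tested. There 10x cap mesenchyme held 247 cells in place of 200, with Col1a1 at 198 CPM in place of 25.1, and the 10x ratios of stroma to cap mesenchyme ran from 2.69 to 12.5 in place of 15.4 to 277. The sizes also shrank under other namings, to a median of 3.26 at Leiden resolution 1.6 and 3.29 with classes given per cell, where 10 of 10 passed.

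**Figure D1:**
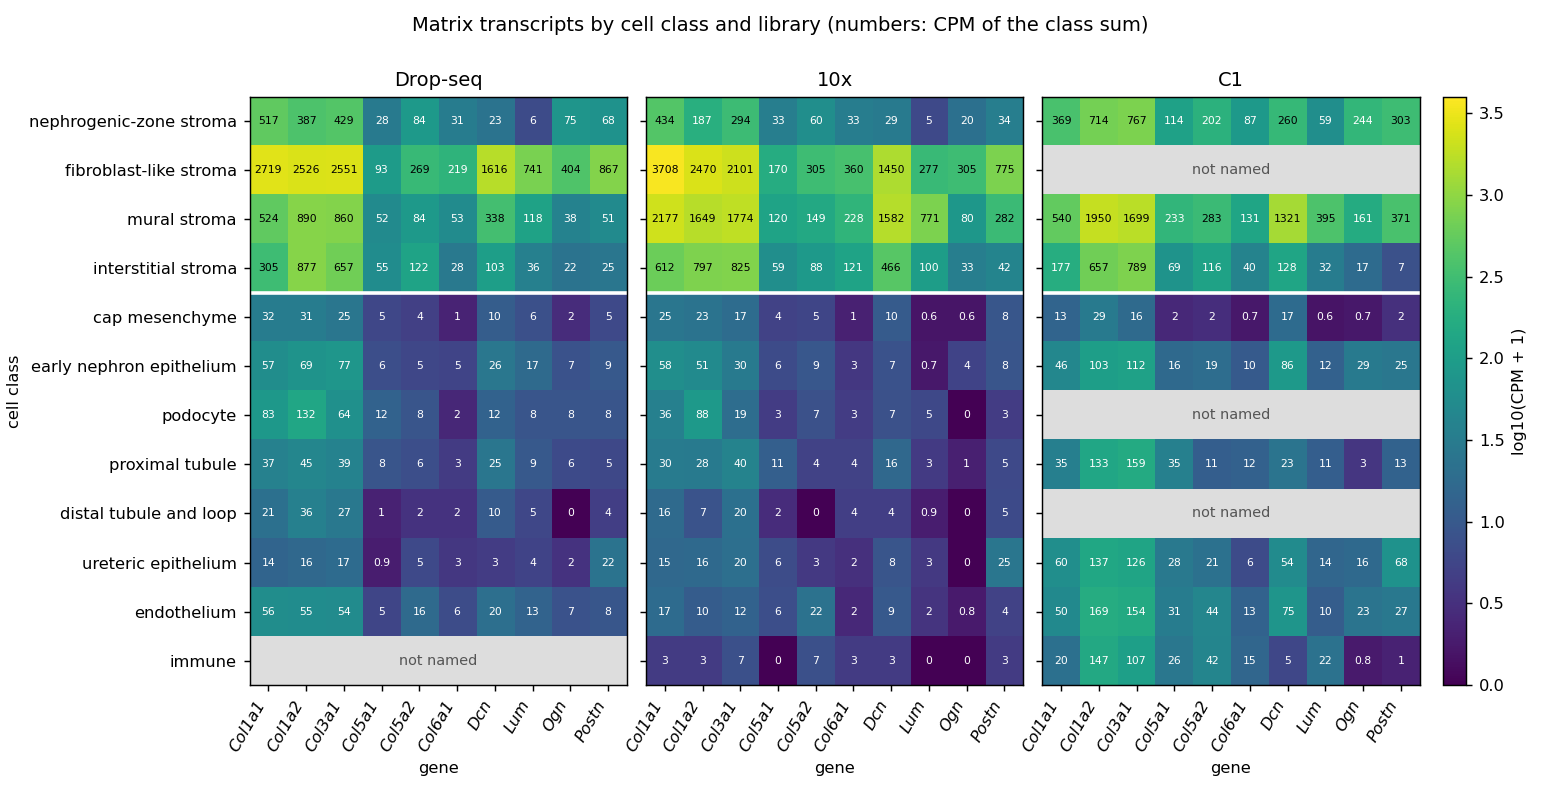
CPM of each gene (columns) in the summed counts of each cell class (rows) for the 3 libraries; the number in each cell is the CPM, the colour its log10(CPM + 1), and the white line parts stroma from other classes. Stromal subtypes stand above the other classes for most genes, fibroblast-like stroma leads in Drop-seq, and the cap mesenchyme row is low for all 10 genes.

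Among the genes of the major fibrils, Col1a1 stood at 610.5 (Drop-seq, 577 to 645), 995 (10x, 968 to 1023) and 432 (C1, 425 to 439) in stroma (CPM with 95% Poisson intervals, which cover counting error only), against 31.7 (Drop-seq), 25.1 (10x) and 13.4 (C1) in cap mesenchyme (log2 fold change 4.80, SE 0.66, edgeR adjusted p = 0.000864). Col1a2 stood at 809 (Drop-seq, 770.2 to 849), 759.7 (10x, 736 to 784) and 1370.1 (C1, 1358 to 1382) in stroma, against 31.0 (Drop-seq), 22.7 (10x) and 28.7 (C1) in cap mesenchyme (log2 fold change 5.05, SE 0.69, edgeR adjusted p = 0.000819). For Col3a1 the levels were 774 (Drop-seq, 736 to 813), 818 (10x, 794 to 843) and 1271 (C1, 1259.9 to 1283) in stroma, against 24.9 (Drop-seq), 17.5 (10x) and 16.4 (C1) in cap mesenchyme (log2 fold change 5.54, SE 0.73, edgeR adjusted p = 0.000643). At a thinned depth (4000 UMIs or 50000 reads a cell) Col3a1 was detected in 83.3% (Drop-seq), 82.2% (10x) and 97.3% (C1) of stromal cells, against 8.04%, 3.91% and 28.4% of cap mesenchyme cells and 6.32%, 5.93% and 49.4% of ureteric cells. For these 3 genes the stromal level was above that of cap mesenchyme in every library. The C1 intervals take each read as a separate count, so they are too narrow where reads copy the same molecule.

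The minor fibril gene Col5a1 reached 46.9 (Drop-seq), 62.8 (10x) and 171 (C1) CPM in stroma, against 4.82 (Drop-seq), 4.08 (10x) and 1.56 (C1) in cap mesenchyme (log2 fold change 4.52, SE 0.75, edgeR adjusted p = 0.00160). Its partner chain Col5a2 reached 101 (Drop-seq), 100.1 (10x) and 233 (C1), against 3.77 (Drop-seq), 4.66 (10x) and 1.91 (C1) (log2 fold change 5.44, SE 0.49, edgeR adjusted p = 4.83e-06). Col6a1 stood at 50.8 (Drop-seq), 115 (10x) and 104 (C1) in stroma, against 1.26 (Drop-seq), 1.17 (10x) and 0.709 (C1) in cap mesenchyme (log2 fold change 6.68, SE 0.57, edgeR adjusted p = 1.02e-06). The log2 ratios of Col5a1 in the single libraries were 3.12 (Drop-seq), 3.80 (10x) and 6.59 (C1). Without 10x, Col5a1 had a log2 fold change of 4.77 with an edgeR adjusted p of 0.0909.

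Among the proteoglycans, Dcn reached 262 (Drop-seq, 240.1 to 285), 491 (10x, 473 to 511) and 811 (C1, 801 to 819.9) CPM in stroma, against 10.5 (Drop-seq), 9.91 (10x) and 17.4 (C1) in cap mesenchyme (log2 fold change 5.33, SE 0.70, edgeR adjusted p = 0.000616). Lum reached 101 (Drop-seq), 162 (10x) and 236 (C1) in stroma, against 6.50 (Drop-seq), 0.583 (10x) and 0.567 (C1) in cap mesenchyme (log2 fold change 6.32, SE 0.92, edgeR adjusted p = 0.000969). Ogn stood at 69.3 (Drop-seq), 58.4 (10x) and 165 (C1) in stroma, against 1.89 (Drop-seq), 0.583 (10x) and 0.709 (C1) in cap mesenchyme (log2 fold change 6.87, SE 0.90, edgeR adjusted p = 0.000266). In 10x the cap mesenchyme values rest on 1 UMI for Lum and 1 for Ogn, set against 850 and 307 UMIs in stroma. The 10x ratio of Lum was thus 277 with a counting interval of 49.7 to 10969, and that of Ogn 100.2 (17.8 to 3969.8). Col6a1 had 2 UMIs there, and its ratio was 98.7 (27.2 to 817). With no doublet removed these 3 ratios lay between 5.37 for Ogn and 12.5 for Lum. The log2 ratios of Lum varied most between libraries, at 3.80 (Drop-seq), 7.87 (10x) and 8.42 (C1), and without 10x its adjusted p was 0.0519. Postn, the matricellular gene, stood at 99.6 (Drop-seq), 132 (10x) and 295 (C1) CPM in stroma, against 5.24 (Drop-seq), 8.16 (10x) and 2.13 (C1) in cap mesenchyme (log2 fold change 5.11, SE 0.59, edgeR adjusted p = 0.00011).

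**Figure D2:**
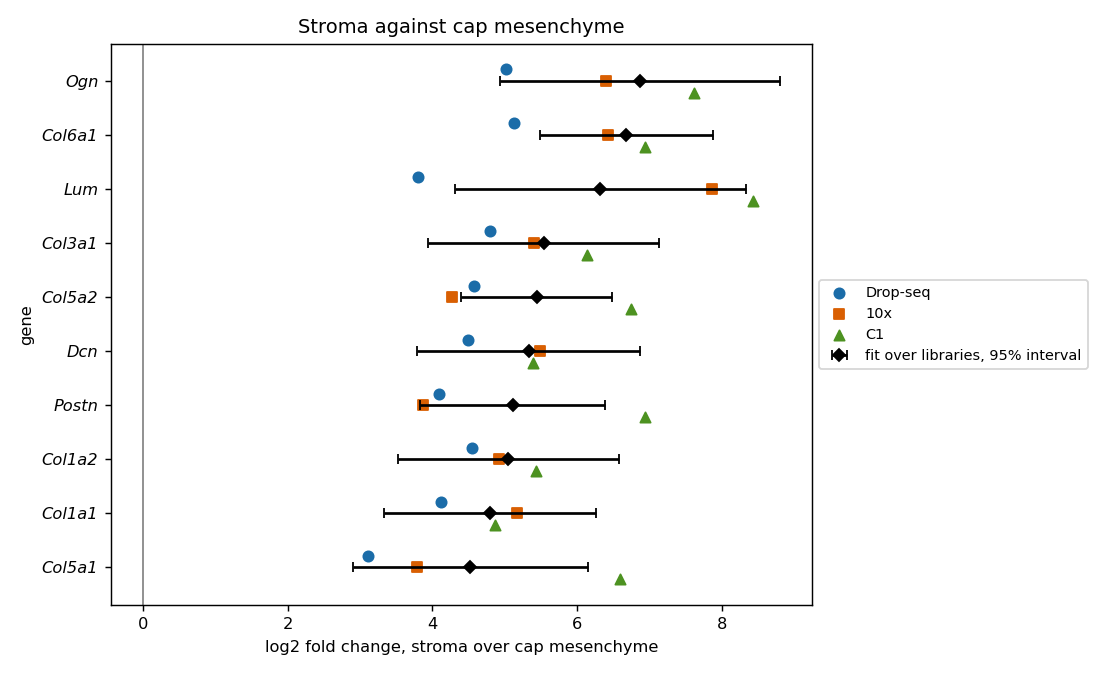
Log2 fold change of each gene between stroma and cap mesenchyme (horizontal axis), with genes in order of the fitted value. Coloured points are the single libraries and black diamonds the edgeR fit with its 95% interval; every point lies right of 0.

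Counts in cap mesenchyme were compared with ureteric epithelium, an epithelium that should lack fibrillar collagens and was taken as a background level. Free RNA was not measured, and the source of the ureteric counts was not tested. By CPM alone, cap mesenchyme stood above ureteric epithelium for 6 of the 10 genes in Drop-seq, for 5 in 10x and for 0 in C1. For each of the 5 in 10x the counting interval of the ratio includes 1, as for Col1a1 (ureteric over cap mesenchyme 0.608, 0.343 to 1.05). In Drop-seq that of Lum did so too (0.273 to 1.40), while that of Col1a1 did not (0.431, 0.279 to 0.645). Those of Col1a2, Col3a1, Col5a1 and Dcn also lay under 1, with upper limits of 0.734, 0.994, 0.790 and 0.697. For Col1a1 the level in cap mesenchyme was 31.7 (Drop-seq), 25.1 (10x) and 13.4 (C1) CPM, against 13.7 (Drop-seq), 15.2 (10x) and 59.6 (C1) in ureteric epithelium. With each cell thinned to 4000 UMIs, Col1a1 was detected in 74.4% (Drop-seq) and 82.9% (10x) of stromal cells (83.2% and 93.2% unthinned), in 63 of 572 and 8.94% of cap mesenchyme cells, and in 4.02% and 6.67% of ureteric cells. Median depths before thinning were 6047 and 6291 UMIs in stroma, 6806 and 8334.5 in cap mesenchyme, and 7482 and 8154 in ureteric epithelium. In C1 at 50000 reads, Col1a1 was in 95.4% of stromal cells, in 11.9% of cap mesenchyme cells and in 28.4% of ureteric cells. For Col1a1, cap mesenchyme thus lay under the ureteric share in C1 and above it in Drop-seq. In 10x it was only numerically above, at 8.94% against 6.67%. Ogn was detected in fewer stromal cells, at 12.6% in Drop-seq and 17.5% in 10x, where ureteric epithelium had 1.15% and 0 of 135 cells (a share of up to 2.22%).

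Genes that build, cut and bind these fibrils were mostly higher in stroma too. Of 24 other collagen genes, 19 were tested, 12 were higher and 1 was lower, with a median log2 fold change of 2.87. The 4 with the lowest adjusted p were Col12a1 (5.30, SE 0.59, adjusted p = 1.21e-05), a fibril-associated collagen, Col16a1 (3.62, SE 0.45, adjusted p = 3.08e-05), Col23a1 (3.56, SE 0.45, adjusted p = 4.17e-05) and Col25a1 (5.45, SE 0.71, adjusted p = 5.42e-05). The gene that was lower was Col2a1, the cartilage fibril collagen, at -3.72 (SE 0.83, adjusted p = 0.00956), named after its value was seen. Of 14 other small leucine-rich proteoglycans, 3 were tested and all 3 were higher, with a median of 5.61: Aspn (5.61, SE 0.84, adjusted p = 0.000178), Bgn (6.11, SE 0.75, adjusted p = 0.000226) and Fmod (4.87, SE 1.56, adjusted p = 0.0380). Both groups stood beside the shares of 5.27% higher and 11.6% lower over all genes.

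Enzymes and chaperones of collagen folding and cross-linking moved in the same direction by smaller amounts. Of 42 such genes, 26 were tested, 18 were higher and 0 lower, with a median log2 fold change of 1.44. Examples are Loxl1 (4.30, SE 0.50, adjusted p = 1.81e-05), which cross-links elastin and collagen, Pcolce (3.66, SE 0.40, adjusted p = 2.65e-05), an enhancer of procollagen cleavage, Crtap (1.74, SE 0.23, adjusted p = 6.44e-05), part of the prolyl hydroxylation complex, and P4hb (0.66, SE 0.11, adjusted p = 0.000709), a subunit of prolyl hydroxylase. In the turnover list 11 of 15 genes were tested, 6 were higher and 0 lower, led by the protease inhibitor Timp3 (4.40, SE 0.33, adjusted p = 3.79e-07), the membrane protease Mmp14 (1.79, SE 0.23, adjusted p = 5.82e-05), Reck (2.38, SE 0.47, adjusted p = 0.00180) and Mmp2 (2.12, SE 0.41, adjusted p = 0.00376). Of 12 receptor genes 7 were tested, 4 were higher and 0 lower: the collagen receptor Ddr2 (4.63, SE 0.49, adjusted p = 5.85e-06) and the integrin genes Itgb1 (0.92, SE 0.12, adjusted p = 4.17e-05), Itga1 (5.50, SE 0.73, adjusted p = 5.82e-05) and Itgav (1.21, SE 0.32, adjusted p = 0.0136). Other interstitial matrix genes had 19 of 22 tested, 13 higher and 0 lower, among them Fn1 (3.33, SE 0.28, adjusted p = 1.95e-06) for fibronectin, Eln (7.52, SE 0.78, adjusted p = 5.14e-06) for elastin, Efemp2 (1.66, SE 0.18, adjusted p = 8.29e-06) and Matn2 (4.47, SE 0.51, adjusted p = 1.59e-05).

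Within stroma the genes were far from even. Fibroblast-like stroma had the highest level of 10 of the 10 genes among the 4 Drop-seq subtypes and of 8 among the 4 10x subtypes, the exceptions being Dcn and Lum, which were highest in 10x mural stroma. The 10 genes together took 1.20% of the counts of fibroblast-like stroma in Drop-seq and 1.19% in 10x. Mural stroma (smooth muscle and pericyte markers) followed at 0.301% (Drop-seq), 0.881% (10x) and 0.709% (C1), then interstitial stroma at 0.223%, 0.314% and 0.203%. Whether the smooth muscle is of vessels or of other tissue was not tested. Nephrogenic-zone stroma had 0.165%, 0.113% and 0.312%, the lowest subtype in both UMI libraries, while in C1 interstitial stroma was lowest. Since each library is 1 sample, this order is a description.

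Postn reached 867 CPM in fibroblast-like stroma of Drop-seq and 775 in 10x, against at most 68.0 (nephrogenic-zone stroma, Drop-seq) and 282 (mural stroma, 10x) in the other named subtypes. Ogn reached 404 and 305 CPM, against at most 75.0 (nephrogenic-zone stroma, Drop-seq) and 80.4 (mural stroma, 10x). Col1a1 reached 2719 and 3708, against at most 524 (mural stroma, Drop-seq) and 2177 (mural stroma, 10x). In 10x, 98.4% of fibroblast-like cells had a Postn UMI (89.1% at 4000 UMIs), beside 9.63% in ureteric epithelium and 3.91% in cap mesenchyme at that depth.

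Of the 18 Drop-seq cells, 1 carried all 145 UMIs of the neutrophil genes Retnlg, S100a8, S100a9 and Lyz2 that led the cluster, and the other 17 had none. Without that cell the levels were 899 CPM for Postn and 419 for Ogn. The summed immune markers stood at 286 CPM in this class and at 1.42 in nephrogenic-zone stroma of Drop-seq, and the erythroid markers at 18925 and 9741; their part in the levels was not tested. Only 10x held 20 or more fibroblast-like cells beside other stroma, so the comparison had no test with clusters as named. With each cell given the class of its highest marker score, all 3 libraries held the class and a fit was possible. Postn was then higher in fibroblast-like stroma than in other stroma (log2 fold change 2.44, SE 0.40, edgeR adjusted p = 0.0422), at 3.06 (Drop-seq), 2.70 (10x) and 1.67 (C1). The call was not kept in the other fits of this comparison, each with the class in 2 libraries: its value stayed positive, with an edgeR adjusted p of 0.355 at Leiden resolution 0.6 and 0.119 with no doublet removed, and 0 members passed in either. With classes per cell it was 1 of 10 members, where 0.0279% of the 7175 genes tested were higher. The other 9 had positive values between 0.63 (Col5a1) and 1.77 (Ogn) with adjusted p from 0.380 to 0.621.

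**Figure D3:**
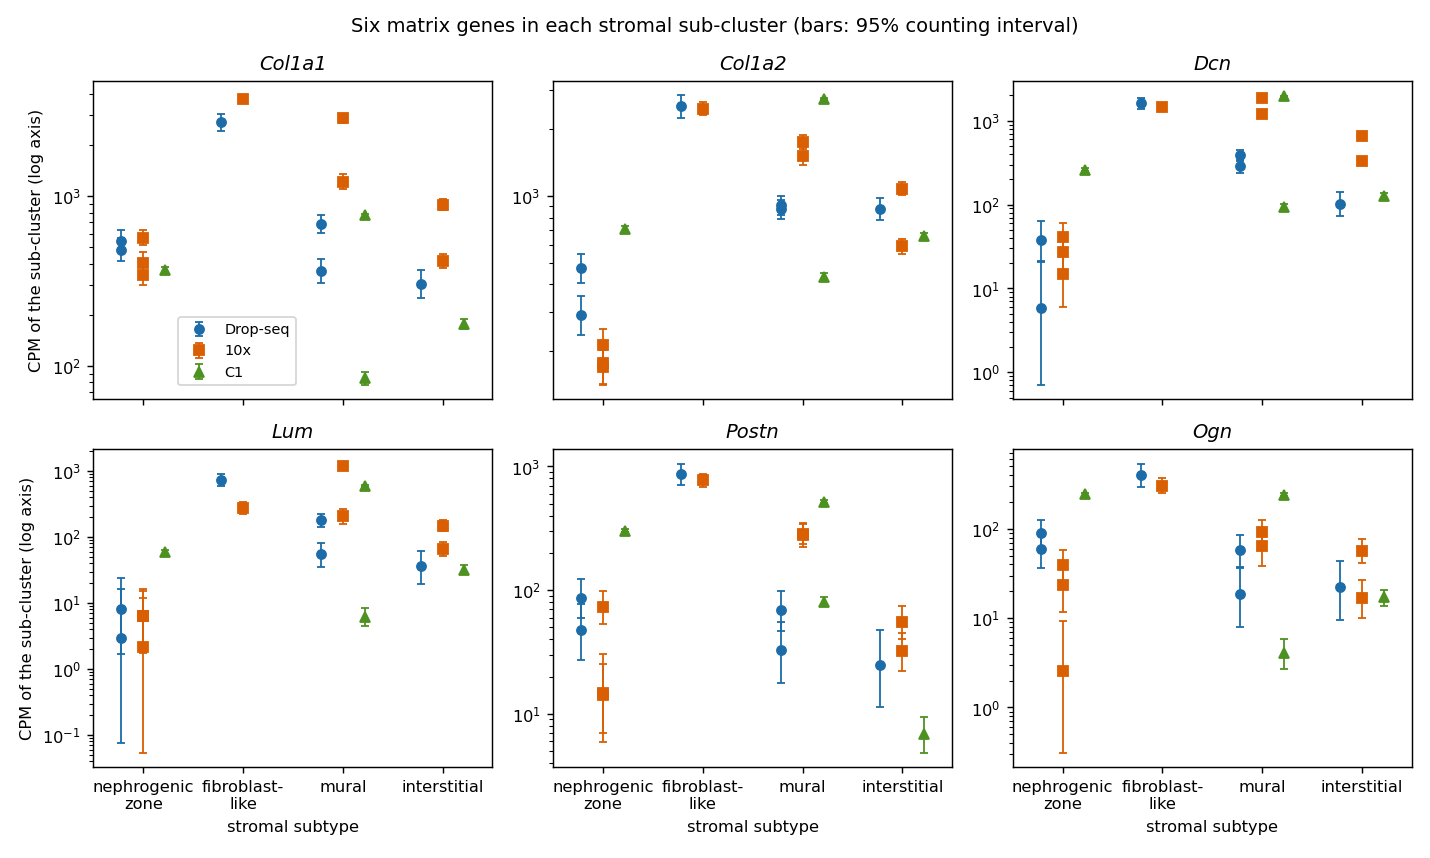
CPM (log axis) of 6 of the genes in each stromal sub-cluster that took a subtype; each point is 1 sub-cluster of 1 library and bars are 95% counting intervals. Dcn and Lum fall lowest in nephrogenic-zone stroma of the UMI libraries, and a C1 mural sub-cluster lies far under the other for every gene shown.

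Mural stroma was split between sub-clusters of very different matrix content. In 10x the sub-cluster of 66 cells led by the smooth muscle genes Actg2, Cnn1 and Myh11 had 1863 CPM of Dcn and 1181 of Lum. The 10x mural sub-cluster of 56 cells, led by Ccl11, Mgp and Cxcl13, had 1194 and 205. In C1 the sub-cluster of 86 cells had 1946 CPM of Dcn, 594 of Lum and 241 of Ogn, whereas the sub-cluster of 31 cells had 94.2, 6.17 and 4.06. The leading genes of the 86 cells held the fibroblast-like marker Mfap5 beside the mural markers Actg2 and Acta2. The summed mural value of C1 lies between those of its sub-clusters. Drop-seq showed the same kind of split for Lum, with 182 CPM in the sub-cluster of 51 cells led by Car3 and Tagln and 55.3 in that of 76 cells.

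In both UMI libraries nephrogenic-zone stroma had little decorin and lumican transcript. Dcn stood at 22.7 (Drop-seq, 12.9 to 36.8), 28.7 (10x, 21.6 to 37.5) and 260.4 (C1, 251 to 269.9) CPM in nephrogenic-zone stroma, against 388 (Drop-seq), 749 (10x) and 1058 (C1) in other stroma. Lum stood at 5.66 (Drop-seq), 5.32 (10x) and 58.8 (C1), against 151 (Drop-seq), 249 (10x) and 315 (C1). Both values lay below those of other stroma in every library. The C1 values pool cells of unlike level: Dcn stood at 651 CPM in the 26 nephrogenic-zone cells named HT (against 1178 in other stroma) and at 80.1 in the 49 named E14 (against 907). Lum stood at 182 in HT (against 379) and 1.80 in E14 (against 235), and HT cells with a Lum read made up 46.2% of nephrogenic-zone and 47.7% of other stroma. What the names HT and E14 stand for is unstated. The fitted log2 fold changes were -3.31 for Dcn (SE 0.65, edgeR adjusted p = 0.104) and -3.49 for Lum (SE 0.83, adjusted p = 0.180), and neither passed the threshold. At 4000 UMIs, Dcn was detected in 3.81% (Drop-seq) and 6.19% (10x) of nephrogenic-zone cells, against 37.2% and 54.3% of other stromal cells, beside 1.15% and 3.70% in ureteric epithelium. The UMI shares of Dcn in the nephrogenic zone were thus numerically above the background share, on few counts. Before thinning, the nephrogenic zone held 16 (Drop-seq) and 54 (10x) Dcn UMIs, and ureteric epithelium 7 and 11. The difference between these shares was not tested.

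For the fibril collagens the fitted values were smaller. Col1a2 had 387 (Drop-seq), 187 (10x) and 714 (C1) CPM in nephrogenic-zone stroma, against 1031 (Drop-seq), 1079 (10x) and 1665 (C1) in other stroma (log2 fold change -1.75, SE 0.55, adjusted p = 0.292, edgeR). Col3a1 had 429 (Drop-seq), 294 (10x) and 767 (C1) CPM in nephrogenic-zone stroma, against 955 (Drop-seq), 1109.8 (10x) and 1499 (C1) in other stroma (-1.38, SE 0.55, adjusted p = 0.412). Col1a1 had 517 (Drop-seq), 434 (10x) and 369 (C1) CPM in nephrogenic-zone stroma, against 659.8 (Drop-seq), 1308 (10x) and 460.2 (C1) in other stroma (-0.84, SE 0.54, adjusted p = 0.609). Col5a1, Col5a2 and Col6a1 had fitted values of -0.94, -0.49 and -1.26. The proteoglycan Ogn had 75.0 (Drop-seq), 20.2 (10x) and 244 (C1) CPM in nephrogenic-zone stroma, against 66.4 (Drop-seq), 79.7 (10x) and 129 (C1) in other stroma. Postn had 68.0 (Drop-seq), 34.0 (10x) and 303 (C1) CPM in nephrogenic-zone stroma, against 116 (Drop-seq), 186 (10x) and 291 (C1) in other stroma. Ogn and Postn thus lay under the level of other stroma in the nephrogenic zone of 10x, and Ogn lay above it in C1 and slightly above it in Drop-seq. The C1 value of Postn mixes opposite differences, with 399 CPM in nephrogenic-zone against 263 in other stroma of HT cells, and 259 against 327 of E14 cells.

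In all, 0 of 10 members passed an adjusted p of 0.05 between nephrogenic-zone and other stroma, where 0.042% of the 7141 genes tested were higher and 0.056% lower. The comparison made few calls of any kind: 746 genes had an unadjusted p under 0.05 and 7 passed (13 without 10x, 26 without C1 and 0 without Drop-seq). The members' median was -1.10, beside 0.02 over all genes, and 10 of 10 fitted values were negative. DESeq2 called 2 members lower (Dcn with an adjusted p of 0.000391 and Lum with 0.00950), among 16 lower genes of 7141 tested. Without C1, edgeR called 3 members lower (Dcn, Col6a1 and Postn), among 20 lower genes of 6917 tested. Of the other lists, 2 collagen genes were lower out of 20 tested, Col23a1 (-3.11, SE 0.43, adjusted p = 0.00208), a transmembrane collagen, and Col14a1 (-3.33, SE 0.59, adjusted p = 0.0396), a fibril-associated collagen that binds decorin. The proteoglycan list had 4 genes tested and 0 called, with a median of -2.42. Podocyte markers summed to 253, 137 and 147 CPM in nephrogenic-zone stroma of Drop-seq, 10x and C1. In interstitial stroma they summed to 829, 139 and 868 CPM. That list holds Tcf21, which was among the top 10 genes of a C1 stromal cluster of 151 cells. The sum is therefore no measure of podocyte RNA alone, and its part in the result was not tested.

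**Figure D4:**
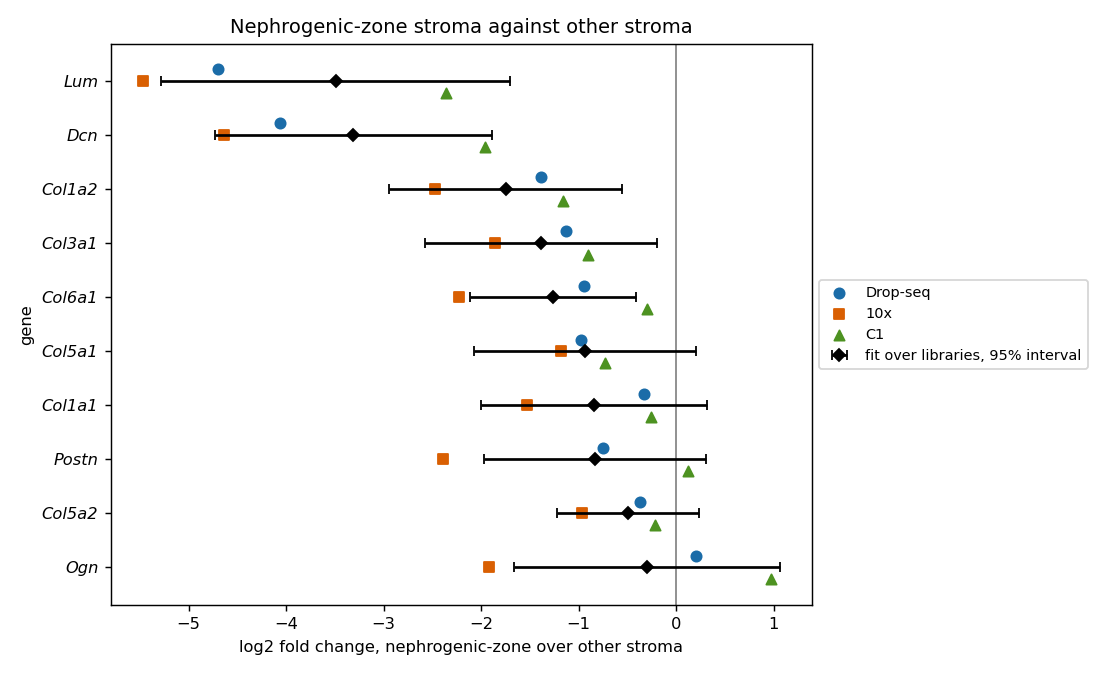
Log2 fold change of each gene between nephrogenic-zone and other stroma (horizontal axis), genes ordered by the fitted value. Coloured points are single libraries and black diamonds the edgeR fit with its 95% interval; Lum and Dcn lie farthest left, and the points of Ogn and Postn lie on both sides of 0.

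The chains of collagen I did not keep 1 ratio through the stroma. In nephrogenic-zone stroma there were 1.34 (Drop-seq), 2.32 (10x) and 0.518 (C1) Col1a1 counts per Col1a2 count. In other stroma the ratios were 0.640, 1.21 and 0.276. The ratio was therefore 2.09, 1.92 and 1.87 times higher in the nephrogenic zone, a mean log2 difference of 0.97 ± 0.08 (SD, n = 3 libraries). It was higher in 3 of 3 libraries, and the two-sided exact sign-flip permutation test gave p = 0.25, the smallest that 3 libraries allow. The ratio itself differs between platforms, so only differences within a library are compared. Interstitial stroma had the lowest ratio of the subtypes, at 0.348 (Drop-seq), 0.768 (10x) and 0.269 (C1), and the 10x stromal cells of no subtype had the highest, at 3.33. Both C1 name groups (HT and E14) had the difference, with 0.502 against 0.354 in HT and 0.539 against 0.199 in E14. At Leiden resolution 0.6 the difference held in 2 of 3 libraries, with a lowest library value of -0.30 and a mean of 0.55. With no doublet removed it also held in 2 of 3, with a lowest value of -0.09 and a mean of 0.62. The ratio was singled out after its values were seen.

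**Figure D5:**
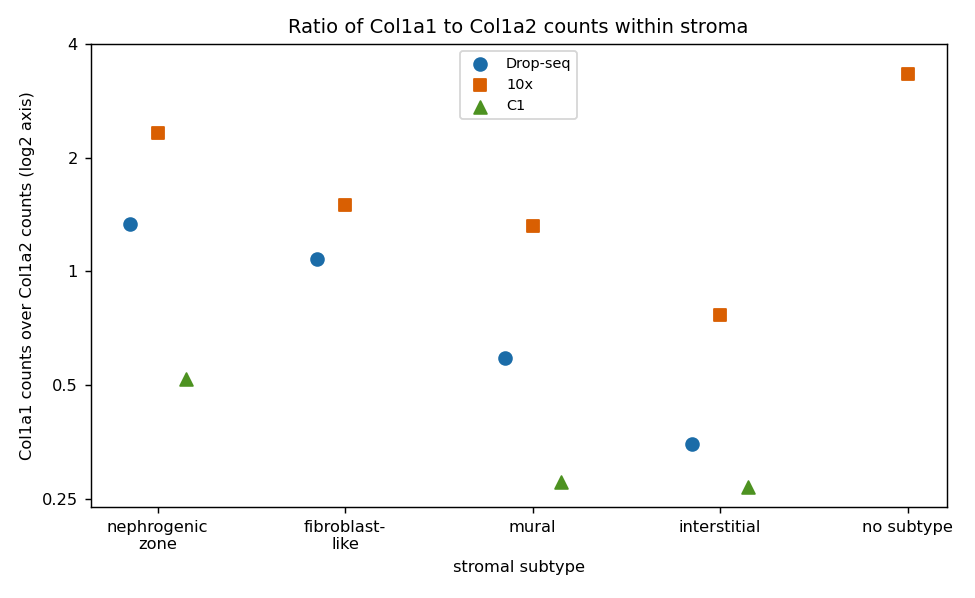
Col1a1 counts over Col1a2 counts (log2 axis) in each stromal subtype, 1 point per library. Within each library nephrogenic-zone stroma lies above mural and interstitial stroma.

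Across single stromal cells, lumican was found mostly with decorin. At the thinned depth, Lum was detected in 47.3%, 41.6% and 52.3% of stromal cells with Dcn in Drop-seq, 10x and C1, and in 2.28%, 5.18% and 5.75% of those without. Conversely Dcn was in 87.5%, 83.5% and 93.2% of cells with Lum. For Ogn and Postn, Postn was in 51.4%, 50.4% and 75.3% of cells with Ogn, and in 11.3%, 22.4% and 42.6% of those without. For collagen I, Col1a2 was found in 10x in 74.0% of cells with Col1a1 and 58.5% of those without. Cells of 1 library are not replicates, and these shares are descriptions over 293 Drop-seq, 692 10x and 219 C1 stromal cells.

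The genes also differed in how many cells carried their counts. The 10% of stromal cells with the most counts of a gene held 89.9%, 79.2% and 80.2% of all stromal Lum counts in Drop-seq, 10x and C1, and 74.6%, 63.4% and 57.0% of Dcn counts. For Ogn it was 85.2%, 71.7% and 67.7%, and for Postn 83.3%, 61.3% and 58.2%. Col3a1 counts were spread over more cells, with 37.4%, 34.5% and 40.0% in the top 10%. The share also depends on how many counts a gene has, and the shares were not compared between genes by a test.

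In C1, where values are read counts, stromal levels per kilobase of annotated exon can be set in order. Dcn was highest at 139 CPM per kilobase, then Col3a1 at 129.5, Col1a2 at 110.3 and Lum at 96.3. Col1a1 and Ogn lay side by side at 65.8 and 64.3, followed by Postn at 33.9, Col5a2 at 24.2, Col6a1 at 23.7 and Col5a1 at 20.2. The lengths join all annotated exons of a gene, so a gene with long rare exons is placed too low. Between the C1 name groups, stromal Dcn stood at 1071 CPM in HT and 567 in E14, and stromal Col1a1 at 550.1 and 322.

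Outside stroma, some genes stood above their level in cap mesenchyme. In C1 this held for all 10 members, with ratios of 3.76 to 32.8 in endothelium and 3.08 to 31.9 in ureteric epithelium. In Drop-seq it held for 10 members in podocytes (ratios of 1.19 to 4.26) and 9 in endothelium (0.972 to 4.66). In 10x it held for 6 members in podocytes (0 to 8.71) and 5 in endothelium (0.453 to 4.65). So the C1 ratios, and the Drop-seq ratios of podocytes and endothelium, are not particular to the genes named next. Podocytes had more Col1a2 than Col1a1, with 132 and 82.5 CPM in Drop-seq, and 10x had the same order. In Drop-seq this order was not particular to podocytes, with Col1a1 to Col1a2 ratios of 0.624 there, 0.567 in distal tubule and loop and 0.755 in stroma. In 10x the ratio was 0.404 in podocytes and 1.31 in stroma. The Col1a2 level of podocytes was 4.26 times that of cap mesenchyme in Drop-seq (counting interval 3.23 to 5.61) and 3.87 times in 10x (2.51 to 6.02). Endothelium had Col5a2 at 16.4 (Drop-seq), 21.7 (10x) and 44.4 (C1) CPM, against 3.77 (Drop-seq), 4.66 (10x) and 1.91 (C1) in cap mesenchyme, and at 4000 UMIs 8.67% of 10x endothelial cells had a Col5a2 UMI, beside 0.559% of cap mesenchyme cells. Ureteric epithelium had Postn at 22.1 (Drop-seq), 24.7 (10x) and 67.7 (C1) CPM, against 5.24 (Drop-seq), 8.16 (10x) and 2.13 (C1) in cap mesenchyme, a ratio of 4.22 (Drop-seq, 2.55 to 7.16), 3.02 (10x, 1.58 to 6.10) and 31.9 (C1, 22.2 to 47.4). So ureteric epithelium had more Postn than the nephron progenitors in the UMI libraries too, and is no background class for this gene. These intervals cover counting error only, and for C1 reads not all of it. No test over libraries was made of these classes.

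The genes whose class pattern was most like the 10 members were Cd248 (Pearson r = 0.97), Islr (0.94), Fbln5 (0.94), Myl9 (0.94), Dlk1 (0.92), Efemp2 (0.92), Olfml3 (0.92), Ccdc80 (0.92), Gpm6b (0.92) and Fbn1 (0.92). The measure is the correlation of log2(CPM + 1), centred within each library, with the members' mean over 32 class sums, and 8581 genes were ranked. Cd248 codes for a surface protein of mesenchymal cells, and Fbln5, Efemp2 and Fbn1 code for parts of elastic fibres. Dlk1 is among the nephrogenic-zone markers used for naming. The members themselves correlated with their mean between 0.87 (Postn) and 0.98 (Col3a1). Class sums of 1 library share cells' preparation and depth, and the values are a description.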

How the data were processed

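The deposited tables used hold raw counts per gene and cell from single-cell RNA of 3 libraries, UMIs for Drop-seq and 10x and reads for C1. Per the submitters' processing notes, Bowtie2 2.2.7, Cell Ranger 1.3.0 and build mm10 were used; tools for counting Drop-seq and C1 are unstated in the sources used here. The labels give the Drop-seq protocol for all 3 samples. The authors' normalized tables were not used.

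Cells needed 500 genes and at most 20% mitochondrial counts. Scrublet doublets were removed (17 in 10x, 10 in C1); in Drop-seq 5 calls, under 0.5%, were taken as a failed run and kept. Each library was clustered in scanpy 1.11.5 (2000 variable genes, 30 components, 15 neighbours, Leiden resolution 1), and stroma was then clustered again alone. Clusters were named by the highest mean z score of 14 marker lists, with 3 or more markers detected and no other class leading the top 10 genes; others stayed unnamed. Cells come from 1 library per platform. With library as a block, p-values set a class difference against how class differences vary between the libraries, pooled over all classes fitted.

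Counts were summed per library and class (20 or more cells) and fitted in edgeR 4.0.16 (TMM, filterByExpr, robust quasi-likelihood, library as block), two-sided, with Benjamini-Hochberg adjustment over all genes tested. The 6023 genes that served for clustering or naming were left out. Standard errors are the fitted log2 value divided by the root of its F statistic. DESeq2 1.42.0, other cell and doublet filters, resolutions, naming and left-out libraries were alternatives. The fit was tested on simulated data. The library block pairs classes because their cells come from the same library. Named genes are the members, up to 4 of each list by adjusted p, and the 10 most alike. Members and lists were chosen with earlier results of these data known. Intervals are exact Poisson or binomial ones at 95% and cover counting error only. For C1 levels and ratios they take each read as a separate count, so they are too narrow where reads copy the same molecule. Depth was a median of 7060 and 7369 UMIs and 166639 reads per cell.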

Additional observations from a re-analysis of the deposited data

Results flagged for a closer look

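Between nephrogenic-zone and other stroma, the libraries moved opposite ways for Ogn and Postn. The log2 ratio of Ogn was 0.20 (Drop-seq), -1.92 (10x) and 0.98 (C1). That of Postn was -0.75 (Drop-seq), -2.39 (10x) and 0.12 (C1). Each library is 1 sample, so the difference between libraries was not tested. In the 10x library, fibroblast-like stroma, which had 305 CPM of Ogn and 775 of Postn, is part of other stroma, while no C1 cluster took that name (with classes per cell, 48 C1 cells did); its part in the difference was not tested. In C1 the Postn difference had opposite signs in the cells named HT and E14.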

How the results depend on the processing

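In stroma against cap mesenchyme, 10 members passed the threshold under every alternative except leaving out the 10x library, which left 8 (leaving out a library gave 8 to 10), and removing no doublet, which left 4; direction was kept throughout. Fitted sizes moved more: Col6a1 (6.68) had 3.28 at resolution 1.6 and 3.01 with classes per cell. The number of genes called was 1223; it was 72 with no replicate block (the library left out of the model, where 10 members stayed called), 716 at Leiden resolution 1.6, 420 with classes per cell by marker score, 405 with no doublet removed, and 315 to 1035 when 1 library was left out. Between nephrogenic-zone and other stroma 7 genes were called; the number was 0 with no replicate block (0 members), 27 with DESeq2 (2 members), 2 at resolution 0.6, 3 at resolution 1.6, 3 with classes per cell, 3 with C1 name groups apart, 1 with no doublet removed, and 0 to 26 when 1 library was left out, with 0 to 3 members. The fitted value of Ogn turned positive with no replicate block (0.32) and without 10x (0.66); with 1 library left out it ran from -0.99 to 0.66. The mean log2 difference of the Col1a1 to Col1a2 ratio was 0.55 at resolution 0.6, 0.60 with classes per cell, 0.62 with no doublet removed and 0.87 with cells of 1000 or more genes; it was 0.92 to 1.0 when 1 library was left out. Fits without 10x stromal cells of no subtype, which changed no member's call, and with no doublet removed were chosen after the data were seen. With no doublet removed, all 10 levels moved past their counting interval in 10x cap mesenchyme and in C1 stroma, and none did in 10x stroma or C1 cap mesenchyme; Drop-seq lost no doublets. Fibroblast-like stroma could be fitted only with classes per cell or, with the class in 2 libraries, at resolution 0.6 and with no doublet removed, where 0 members passed. The cause of these shifts was not tested. With 1 library per platform, spread between animals was not measured, and depth limits Lum, Ogn and Col6a1 in cap mesenchyme.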

Other observations

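Cells that took no class also held matrix transcripts. Unnamed cells (109 of Drop-seq, 113 of 10x and 264 of C1) had Col1a1 at 349 (Drop-seq), 311 (10x) and 103 (C1) CPM and Postn at 66.8 (Drop-seq), 75.5 (10x) and 49.8 (C1). In C1, 4 sub-clusters of cells first placed in stroma stayed unnamed, with Dcn at 442, 77.8, 104 and 115 CPM. A Drop-seq sub-cluster of 70 cells fell among stroma at first and was led by the cap mesenchyme genes Cited1, Crym and Uncx; it had 414 CPM of Col3a1 and 140.0 of Dcn. A 10x sub-cluster of 35 cells led by Cited1 and Uncx, with a median of 13238 UMIs per cell, had 429 and 125. These cells entered no comparison, and whether they are doublets was not tested.

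The 85 10x stromal cells of no subtype, led by Pdzrn4, Crabp2 and Krt18, had much Col1a1 beside little Dcn, at 846 and 60.4 CPM, with Postn at 146 and Ogn at 83.3. Their highest marker score was that of nephrogenic-zone stroma, yet they were counted in other stroma. The other genes called between nephrogenic-zone and other stroma belong to no matrix list: Gsr, Mapre2 and Nipsnap1 were higher and Eif4ebp1 and Rit1 lower, and they were named after their values were seen.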
